A study of Homo sapiens with 6 samples.

Results

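Of the 19108 chromatin regions called with full-length ZNF469, 290 (1.52%, 95% Wilson interval 1.35% to 1.70%) had their summit in an exon of a protein-coding gene while lying away from promoters, and these exonic regions are described here. A region was included when the summit, the base with the most overlapping fragments, fell in an exon of a protein-coding gene in GENCODE version 44 (build hg38), more than 1 kb from every annotated transcription start. In addition, the summit window, which takes in 50 bp on either side of the summit, could not hold TGACTCA or its reverse complement, the AP-1 consensus also known as the TRE. Another 98 exonic summits met the distance rule but held that consensus, 5222 regions lay in introns and 5144 outside protein-coding genes under the same 2 rules, and 5232 regions were within 1 kb of a start.

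The regions come from CUT&RUN, in which an antibody brings a nuclease to a chromatin protein and the fragments it releases are sequenced, performed with an antibody against ZNF469. The cells were LX-2, an immortalized human hepatic stellate cell line, carrying a doxycycline-inducible piggyBac transgene that encodes HA-tagged full-length ZNF469 (clone3.4) or dZF-ZNF469 (clone3.1), which lacks most of the zinc fingers. Both lines were selected with Geneticin and received 1 ug/mL doxycycline for 24 h, and each construct was measured in 3 libraries, 6 in all. The authors combined the 3 libraries of a group into 1 list, so no value per library, no replicate SD and no test between libraries could be given. Each construct sat in its own line, so construct and line cannot be told apart. Any ZNF469 that LX-2 cells make from their own gene was not measured apart from the transgene's.

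ZNF469 is a very large C2H2 zinc finger protein, and variants in its gene are known for brittle cornea syndrome, a disorder of thin, collagen-poor tissue. Exons hold the sequence that stays in a mature transcript: the 5' UTR lies before the protein-coding part, coding exons carry the codons, and the 3' UTR, usually in the last exon, carries signals for stability and polyadenylation. A protein can be recovered over an exon because it sits on the DNA there or next to it, and a peak list gives occupancy of DNA and not the amount of a transcript.

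For 3 of the coding regions that stood out by enrichment or fragment number the sequence is shown first, because each places a summit inside codons. The sequences are 30 bases around the summit on the gene's strand, read from hg38, with the codon at the summit in capitals. They lie at chr6:4126212-4126241 (ECI2, minus strand), chr6:149697125-149697154 (LATS1, minus) and chr3:13504500-13504529 (HDAC11, plus).
ECI2 exon 6, codon 194: ataggaaatggtGACtattacagtagtggg
LATS1 exon 3, codon 132: tagtcttactaagCCAtttctcatttaaaa
HDAC11 exon 10, codon 292: gatggtccgtggcCGCcgggtgcccatcct
The ECI2 window crosses a splice site, and its first 4 bases are intronic. The LATS1 exon is coding only in a transcript other than the canonical one. The G and C content of these 3 windows ran from 26.7% in LATS1 to 73.3% in HDAC11.

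Most of the exonic regions were in 3' UTRs. The 3' UTR held 183 summits (63.1%, 57.4% to 68.5%), coding sequence held 58 (20%, 15.8% to 25%), exons of noncoding transcripts of protein-coding genes held 41 (14.1%, 10.6% to 18.6%) and 5' UTRs held 8 (2.76%, 1.40% to 5.35%). By position in the transcript, 220 summits (75.9%) were in last exons and 57 (19.7%) in internal exons. First exons held 10, and 3 were in the only exon of a transcript. These orders followed the classes, since 175 of the 183 3' UTR summits were in last exons and 41 of the 58 coding summits in internal ones. The canonical transcript supplied the exon for 199 regions, and for the other 91 the exon belonged to another transcript of the gene only.

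These shares were then read against how much exon could have been counted. Eligible sequence, meaning bases of a class more than 1 kb from every start and without a TRE in the window around them, came to 69.9 Mb of exon, of which 52.3% was 3' UTR and 32.1% coding. The 3' UTRs held 5.0 regions per Mb (exact 95% Poisson limits 4.31 to 5.78), and introns held 4.84 (4.71 to 4.97), a ratio of 1.03 (0.888 to 1.20). Coding sequence held 2.58 regions per Mb (1.96 to 3.34), which was 0.534 of the intron density (0.405 to 0.691), and the 3' UTR density was 1.94 times the coding one (1.44 to 2.65). Coding sequence was therefore sparser than introns and 3' UTRs by more than the counting error, while 3' UTR and intron could not be distinguished. Exons of noncoding transcripts held 4.14 per Mb (2.97 to 5.62) and 5' UTRs 8.23 (3.55 to 16.2), the latter resting on 8 regions. Internal exons held 2.81 per Mb (2.13 to 3.64) and last exons 4.74 (4.13 to 5.41). These limits cover the counting of regions in 1 pooled list and not the difference between libraries.

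**Figure D1:**
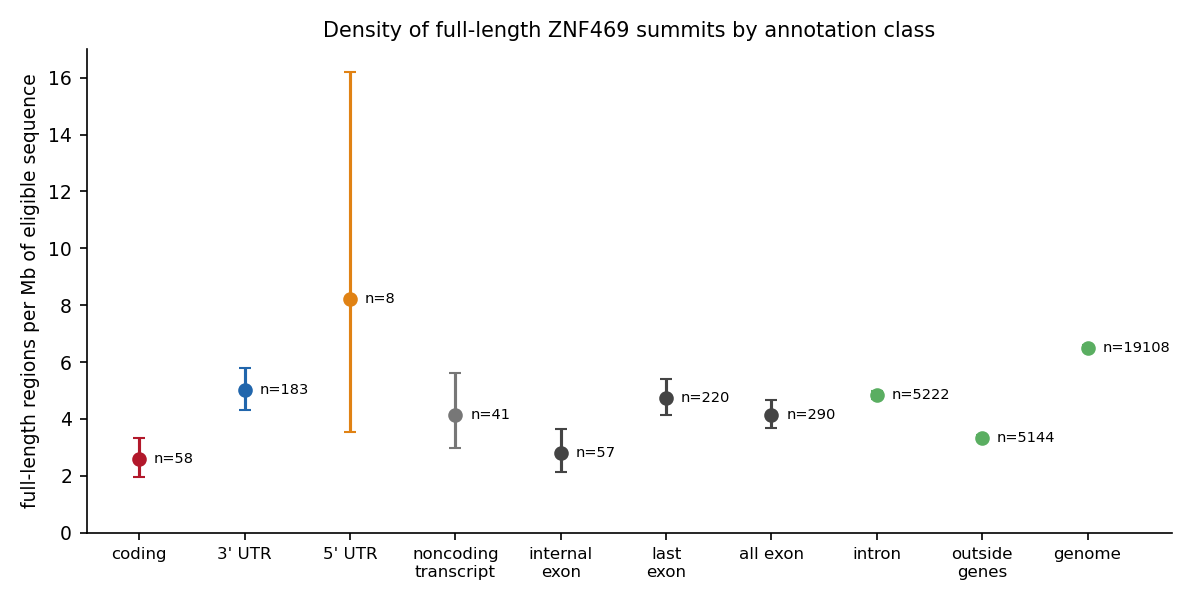
Full-length regions per Mb of eligible sequence in each class, with exact 95% Poisson limits as bars and the number of regions beside each point; red, blue, orange, grey and black points are classes of exon, green points are introns, sequence outside protein-coding genes, and the whole genome with promoters and TRE sites included. Coding sequence (2.58 per Mb) sits below introns (4.84) and 3' UTR (5.0) lies level with them.

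The density in coding sequence was then compared within classes of base composition and of exon length. Where under 40% of the summit window was G or C, coding sequence held 2.16 regions per Mb (1.08 to 3.87) and introns 3.37 (3.22 to 3.53), so the limits overlapped. Between 40% and 50% the values were 3.85 (2.52 to 5.65) and 6.98 (6.69 to 7.27). Between 50% and 60% they were 2.38 (1.30 to 4.0) and 5.60 (5.26 to 5.96), and at 60% or more 1.47 (0.591 to 3.03) and 4.58 (3.96 to 5.28). The coding limits lay below the intron limits in the upper 3 of the 4 classes, and the 3' UTR limits overlapped those of introns in all 4. In exons under 300 bp coding sequence held 2.08 regions per Mb (1.38 to 3.01) and 3' UTRs 5.15 (1.40 to 13.2). In exons of 300 to 1000 bp the values were 2.3 (0.845 to 5.01) and 5.43 (3.16 to 8.69), and in exons of 1000 bp or more 3.74 (2.40 to 5.57) and 4.96 (4.23 to 5.79). The limits of coding sequence and 3' UTR thus overlapped in all 3 length classes, and the coding limits lay below the intron density of 4.84 per Mb in exons under 300 bp but included it in the other 2 classes.

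**Figure D2:**
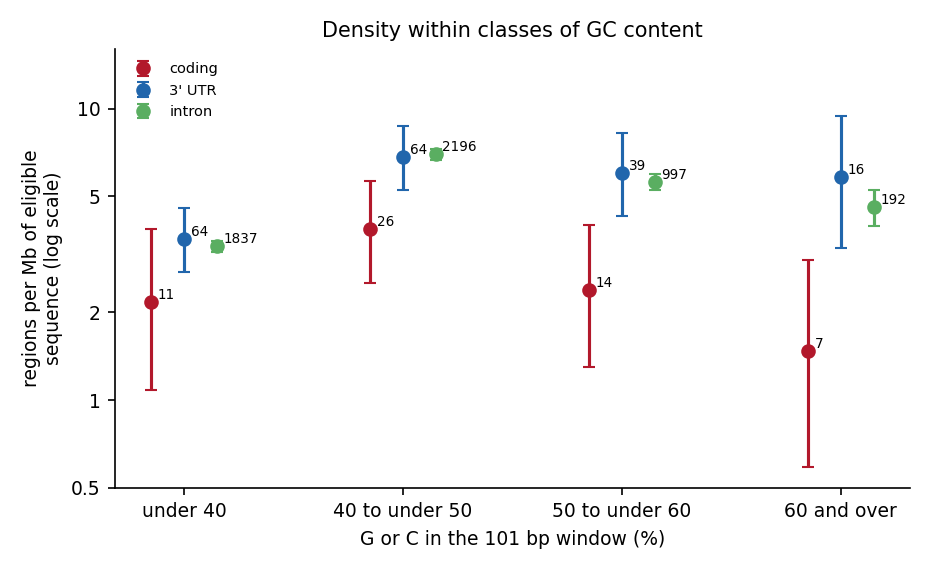
Regions per Mb of eligible coding sequence (red), 3' UTR (blue) and intron (green), on a log scale, against the G and C content of the window of 50 bp on either side; bars are exact 95% Poisson limits and the numbers give the regions in each class. Coding points lie below the others in every class, with limits that overlap the intron limits only under 40% G or C.

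In strength the exonic regions were ordinary members of the list. Fold enrichment is the ratio of (pileup + 1) to (local background + 1), where the pileup is the number of fragments over the summit in the pooled libraries and the background the number the peak caller expected there. The median fold was 7.51 (95% limits of the median 7.20 to 7.75), the quartiles were 6.27 and 8.50, and single values ran from 2.34 to 33.5. Over all full-length regions the median was 7.36, and over intronic regions 7.25. The median pileup was 21 fragments (19 to 22), with a range of 6 to 79, against 20 over the whole list. The median background was 1.86 fragments against 1.82, and the median width 456 bp against 440 bp.

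The pileup was also compared in the upper tail of the list. At least 35 fragments were found over 10.6% of all regions and over 21 exonic ones (7.24%, 4.78% to 10.8%), so the interval of the exonic share included the share of the whole list.

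**Figure D3:**
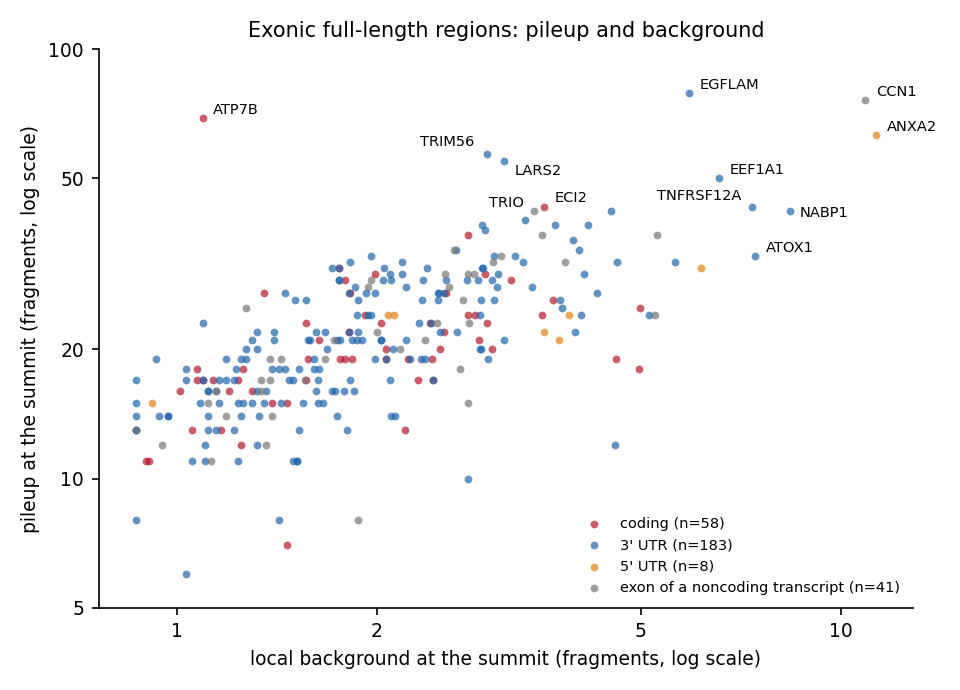
Pileup at the summit against the local background, both in fragments on log scales, for the 290 exonic regions, coloured by class; each point is 1 region of the pooled list. ATP7B stands far above regions of the same background, whereas CCN1 and ANXA2 combine high pileups with the highest backgrounds.

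A few regions departed from this. The region in ATP7B, which encodes a copper-transporting ATPase, reached 69 fragments (53.7 to 87.3) against an expected 1.09, which is a fold of 33.5. The next highest fold among the exonic regions was 14.8, in the 3' UTR of TRIM56, a ubiquitin ligase, with 57 fragments (43.2 to 73.9). The 3' UTR of LARS2, the mitochondrial leucyl-tRNA synthetase, followed with a fold of 13.6 and 55 fragments (41.4 to 71.6). Below these the values were close together: LATS1, a kinase of the Hippo pathway, had a fold of 11.9 and 27 fragments (17.8 to 39.3), and the 6 regions that followed, in STOML1, FAIM2, ZKSCAN1, HDAC11, EGFLAM and CYB561, had folds of 11.5 to 11.8.

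The highest pileups were not all the highest folds. The 3' UTR of EGFLAM, which encodes the matrix protein pikachurin, had 79 fragments (62.5 to 98.5) where 5.90 were expected. Its summit was 284 bases past the last base before the stop codon. The last exon of a noncoding transcript of CCN1, a matricellular protein gene, reached 76 (59.9 to 95.1), but with 10.9 expected its fold was 6.47. A 5' UTR exon of ANXA2, which encodes annexin A2, had 63 (48.4 to 80.6), with 11.3 expected, in the widest exonic region, 1130 bp, with a fold of 5.20. EEF1A1, the translation elongation factor gene, had 50 fragments. ECI2, which encodes an isomerase of fatty acid oxidation, and TNFRSF12A, the TWEAK receptor gene, had 43 each. TRIO, a guanine nucleotide exchange factor gene, had 42 in an exon of a noncoding transcript. The other backgrounds of the upper 5 belonged to NABP1 (8.37), ATOX1 (7.44) and TNFRSF12A (7.35), all in 3' UTRs. The next in width were in the 3' UTRs of SDR42E2 (1007 bp), KIAA1549L (979 bp), KCNC4 (967 bp) and SLC10A7 (938 bp), all wholly exonic. The Poisson limits of the highest pileups overlapped, from EGFLAM down to EEF1A1 (37.1 to 65.9), so the order of these is not resolved by counting.

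The 8 regions in 5' UTRs had a median fold of 5.15, and its limits (4.47 to 8.35) held the medians of coding sequence (7.06), noncoding exons (7.51) and 3' UTRs (7.62), so the classes could not be ordered by fold. They had a median background of 3.67 fragments, against 1.83 in coding sequence and 1.82 in 3' UTRs. Beside ANXA2 they were in ENC1 (31 fragments, background 6.16), ZCCHC9 (24, 2.08), ELK3 (24, 3.89), LMO7 (24, 2.12), HOXB6 (22, 3.57), HTR1D (21, 3.76) and FABP12 (15, 0.917). Another full-length region lay within 5 kb of 6 of these 8 (75%, 40.9% to 92.9%). All of these genes except HTR1D and FABP12 had the summit in an exon that only a transcript other than the canonical one holds. The part of the background in these folds was not tested.

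ATP7B was the only exonic region that also appeared with dZF-ZNF469, which is 0.345% of the 290 (0.0609% to 1.93%) beside 0.115% of all full-length regions overlapping a dZF region by at least 1 bp. In the dZF list its summit was at the same base, where 126 fragments (105 to 150) met an expected 1.52, giving a fold of 50.3. The record was 178 bp wide and 89.9% exonic, and its central 31 bases had no other exact match in the genome. It was 2383 bp from the nearest start, and the nearest other full-length region was 68132 bp away. The dZF list held 54 regions in all, of which this was the only exonic one away from starts, so no other exonic region could be set beside it.

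The width of a region relative to an exon differed between coding sequence and 3' UTR. Coding summits lay in exons of median length 325 bp (156 bp for internal ones), at a median of 53.5 bp from the nearest splice site. Only 15 of the 58 coding records (25.9%) were exonic from end to end, and 18 were less than 50% exonic. EXT1, a heparan sulfate synthesis gene, had 37 fragments with 12.4% of the record in exon sequence, and PUS7L had 30 fragments with 19.8%. The LATS1 record was 19.5% exonic. By contrast, MAML1, a Notch coactivator gene, and both regions of ZFYVE9, which encodes a SMAD anchor, were exonic throughout, in exons of 1416 and 2108 bp. Of the 3' UTR records, 157 of 183 (85.8%) were wholly exonic and 5 were less than 50% exonic. The coding class is thus defined by the summit, and for many of its members most of the covered sequence was intron.

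Summits were spread along the 3' UTR. Positions were counted from the last base before the stop codon, so the stop codon is included in the 3' UTR here. The median 3' UTR with a summit was 3544 bp long, and the median summit was 1384 transcript bases into it. As a share of the length, the median position was 46.0% of the way along. Divided into 5 equal parts from the stop codon to the end, the 3' UTR held 42, 38, 36, 37 and 30 summits, shares whose intervals all overlapped. The extremes were PCNX2, with the summit at base 2, which is in the stop codon itself, and CNKSR3, with one at base 18766. Divided in the same way, the coding sequence held 9, 7, 13, 12 and 17 summits, with intervals that also overlapped. Eligible 3' UTR bases sat in exons of median length 3434 bp, close to the 3620 bp of the exons that held 3' UTR summits, whereas eligible coding bases sat in exons of median length 204 bp, shorter than the 325 bp of the exons with a coding summit.

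**Figure D4:**
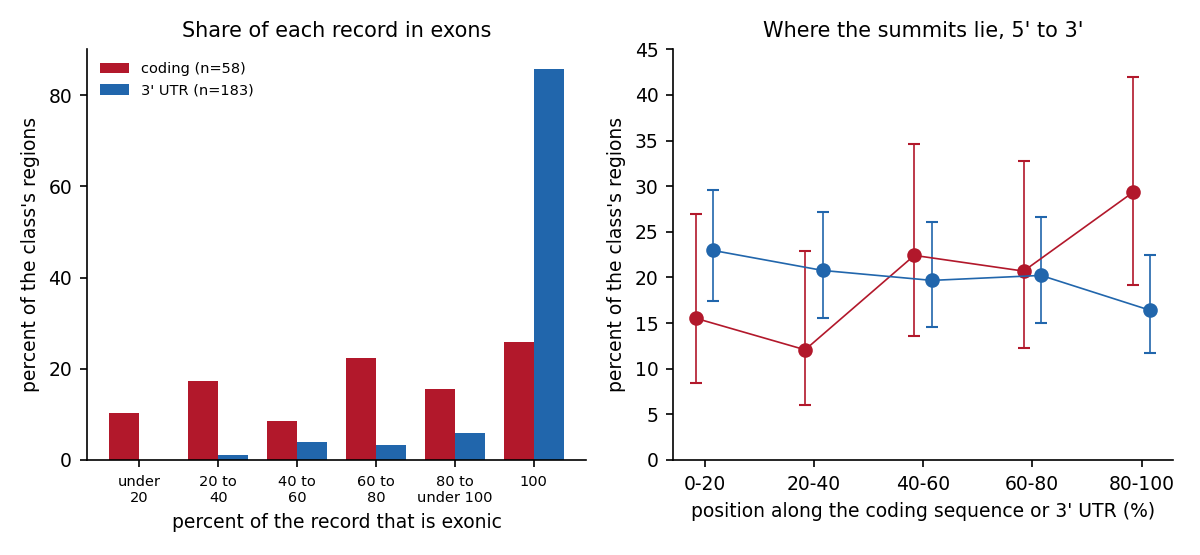
Left, percent of coding (red, n=58) and 3' UTR (blue, n=183) regions by the share of the record that is exonic; right, percent of the same regions in 5 equal parts of the coding sequence or 3' UTR with 95% Wilson intervals. Most 3' UTR records (85.8%) are wholly exonic against 25.9% of coding records, and no part of either stands apart from its neighbours by more than its interval.

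The exonic regions were distributed over 272 genes, 1.36% of the 20033 protein-coding genes, and 255 of these genes had 1 region only. LPP, which encodes a focal adhesion protein, had 3, all in its last exon of 16321 bp. Its pileups were 15, 15 and 22 fragments within 848 bp, with limits that overlapped. In 14 exons there were 2 or more summits, among them coding exons of RIN2, a RAB5 regulator gene, with summits 234 bp apart (25 and 18 fragments), and of ZFYVE9 with summits 944 bp apart (27 and 22 fragments). Such neighbours are not independent observations of a gene. Another full-length region lay within 5 kb of 75 exonic regions (25.9%, 21.2% to 31.2%), beside 22.2% over the whole list.

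Many of these genes held other full-length regions. In 98 cases (33.8%, 28.6% to 39.4%) the gene also had a region within 1 kb of one of its starts, beside 36.8% for intronic regions and 22.3% of all protein-coding genes. The share was 44.8% (32.7% to 57.5%) for coding and 27.9% (21.9% to 34.8%) for 3' UTR regions, with intervals that overlapped. In 159 cases (54.8%, 49.1% to 60.5%) the gene also had an intronic region, beside 16.8% of all protein-coding genes, and 104 exonic regions (35.9%) were the only full-length region in the body of their gene. Shares of exonic and intronic regions are taken over regions, whereas those of protein-coding genes are taken over genes, so the units differ. Long genes offer more room for additional regions, and this was not adjusted for.

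Because the study asked where ZNF469 sits at collagen and matrix genes, members of gene lists were counted next, beside the 1.36% of genes with an exonic region and the 27.2% with a region anywhere in the gene. Collagen chains had 3 of 44 genes with an exonic region and 25 with any region. COL12A1, a fibril-associated collagen, had one in coding exon 10 with 24 fragments (15.4 to 35.7) and one in coding exon 36 with 17 (9.90 to 27.2). COL4A2, a basement membrane chain, had one in the 3' UTR of a transcript other than the canonical one with 17 fragments, and COL8A1 one in an exon of a noncoding transcript with 17. With folds of 5.25 to 7.56, all 4 were near or below the list's median. Of 14 stellate cell markers, LOX, the collagen cross-linking enzyme gene, had one in its 3' UTR with 20 fragments (12.2 to 30.9), and 10 had a region anywhere. Of 45 matrix glycoprotein and proteoglycan genes, CCN1 and LAMA1, a laminin chain gene with 29 fragments (19.4 to 41.6), had one. Both were in exons of noncoding transcripts. A region anywhere was found for 22 of the 45.

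The remaining lists gave few members. The 38 actin cytoskeleton and adhesion genes had 4 (LPP, TRIO, MACF1 and CALD1) with 6 regions, and 31 of them had a region of some kind. The exonic regions of TRIO and CALD1 were in exons of noncoding transcripts. The 15 fibrosis genes named by the study, the 18 genes of the TGF-beta pathway, the 51 clustered protocadherins, the 17 mucins and the 5 hepatocyte markers had no exonic region. A region elsewhere in the gene was found for 8 of the 15 fibrosis genes, 15 of the 18 TGF-beta genes, 19 of the 51 protocadherins, 2 of the 17 mucins and none of the hepatocyte markers. Of 596 C2H2 zinc finger genes 6 had one, with ZKSCAN1 (31 fragments), ZNF654 (27) and ZNF148 (22) the highest. One region each was found in 415 olfactory receptors (OR4E1, 17 fragments), 86 cytosolic ribosomal protein genes (RPS27L, 16), 15 AP-1 factor genes (JUND, 23) and 6 macrophage and endothelial markers (PECAM1, 15), and HOXB3 (37) and HOXB6 (22) were the members among 39 HOX genes. The HOXB3 region was in an exon of a noncoding transcript. Of the 6 macrophage and endothelial markers, 3 had a region anywhere in the gene. So did 90 C2H2 genes, 5 olfactory receptors, 16 ribosomal protein genes, 7 AP-1 factor genes and 7 HOX genes. These are counts of 0 to 6 genes a list, and no list was tested against the other genes.

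The exclusion of promoters removed most exonic summits and several genes of interest. Of 1405 exonic summits without a TRE, 1115 (79.4%) were within 1 kb of a start, and for 129 of those the only starts that close were outside the set of protein-coding transcripts. COL1A1 had a summit in an exon of a noncoding transcript, with 93 fragments (75.1 to 114) over a background of 39.1. Its fold was 2.35, where the lowest fold of all full-length regions was 2.09. The summit was 126 bp from a start outside the protein-coding set and 11763 bp from the nearest protein-coding one. The corresponding summit of COL1A2, with 41 fragments (29.4 to 55.6) and a fold of 8.42, was 111 bp and 29204 bp away. ZNF469 itself had a summit in coding exon 3 with 52 fragments (38.8 to 68.2) and a fold of 5.12, but this lay 443 bp from a start, so the gene contributed no exonic region. The transgene carries the same coding sequence, so fragments of the transgene and of the gene cannot be told apart there. Just beyond 1 kb, and so included, were SFSWAP, 1009 bp from a start with 20 fragments, and HOXB3, 1024 bp away with 37. Just within 1 kb, and so left out, were SNAP25 (997 bp, 30 fragments) and PSMD1 (993 bp, 55 fragments).

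The sequence under the exonic summits resembled that of intronic regions more than that of promoters. The median G and C content of the window was 45.5% (43.6% to 47.5%), against 43.6% for intronic regions, 58.4% for regions at starts, and a mean of 44.6% over every eligible exon window. The classes differed in direction. The coding median was 47.0% (43.6% to 49.5%) where eligible coding windows averaged 49.8%. The 3' UTR median was 44.6% (42.6% to 46.5%) where eligible 3' UTR windows averaged 41.8%. In each case a median over regions is set beside a mean over windows, and the mean lay just outside the limits of the median. The mean number of CpG dinucleotides in the window was 1.67, against 0.976 in intronic regions and 5.54 at starts. Eligible windows averaged 1.575 in exons and 0.952 in introns, so most of the gap between exonic and intronic regions was also present in eligible sequence. A TRE lay elsewhere in the record in 104 exonic regions (35.9%, 30.6% to 41.5%), close to the 36.5% of intronic ones. Before its exclusion, 98 of 388 exonic summits away from starts held it in the window (25.3%, 21.2% to 29.8%), against 22.8% in introns.

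Short motif letters were counted in the summit windows on both strands, each beside its share of all eligible exon windows. CATTCC, the core that TEAD factors of the Hippo pathway bind, was found in 34 exonic regions (11.7%, 8.51% to 15.9%), in 13.8% of intronic regions and in 5.44% of eligible exon windows. TGTGGT, the RUNX core, was found in 43 (14.8%, 11.2% to 19.4%), in 11.4% of intronic regions and in 6.64% of eligible windows. For both, the lower limit of the share lay above the share of eligible windows, and 71 exonic regions (24.5%) held one or the other. In coding regions CATTCC was found in 11 of 58 (19.0%, 10.9% to 30.9%), where 5.38% of eligible coding windows held it. TGTGGT was found in 7 of the 58 (12.1%, 5.97% to 22.9%), an interval that included the 6.76% of eligible coding windows.

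The other motifs are given in the same way. CCAAT, the NF-Y core, was found in 12.8% of exonic regions (9.40% to 17.1%) and in 13.6% of eligible windows, while 1570 of the 5232 regions at starts held it. The GC box GGGCGG was found in 4.48% (2.64% to 7.52%), against 2.51% of eligible windows and 30.5% of regions at starts. The ETS core CCGGAA was found in 9 exonic regions (3.1%, 1.64% to 5.79%), against 1.35% of eligible windows, and 5 of the 9 were coding (8.62% of coding regions, 3.74% to 18.6%, against 2.55% of eligible coding windows). For the GC box and the ETS core the lower limit also lay above the share of eligible windows. The same held in intronic regions. There the GC box was found in 2.07% (1.72% to 2.49%), against 1.36% of eligible intron windows. The ETS core was found in 1.15% of them (0.894% to 1.48%), against 0.557% of eligible intron windows. The E-box CACGTG was found in 2 exonic regions (0.690%, 0.189% to 2.48%), against 1.3% of eligible exon windows. A CTCF consensus was also found in 2, against 0.178% of eligible windows, so its lower limit lay just above that share, on 2 regions. Neither the CRE nor the NFI palindrome was found in any exonic region, and 0.0463% and 0.00652% of eligible windows held them. With 3 counts as the limit, a count of 0 in 290 windows allows a share of up to 1.03%, which is above both. None of these 9 motifs was found in 170 regions (58.6%). A match describes letters only, and whether the factor was bound is not measured here.

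**Figure D5:**
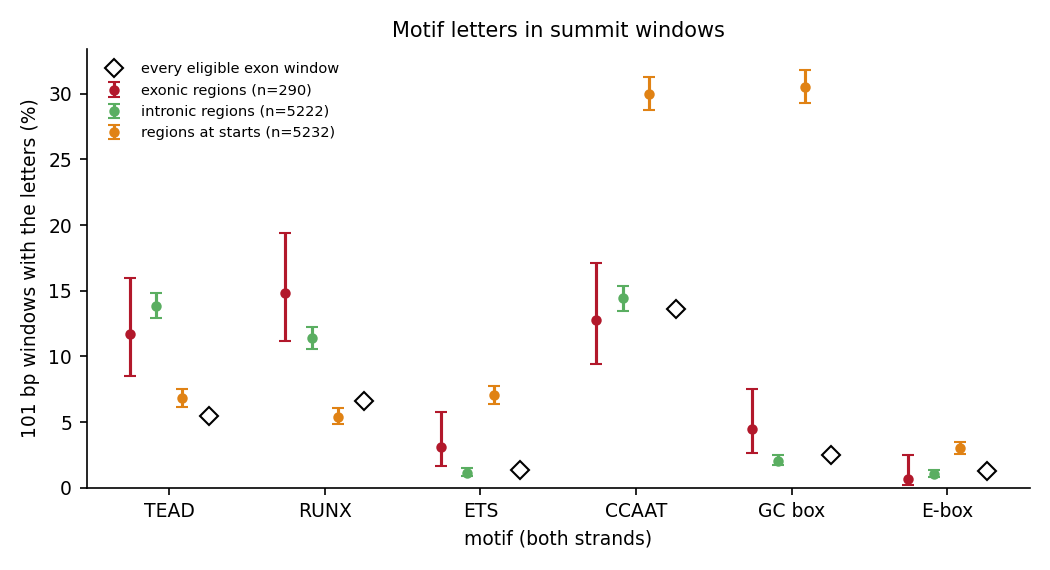
Percent of summit windows that hold each motif on either strand, with 95% Wilson intervals, for exonic regions (red), intronic regions (green) and regions at starts (orange); open diamonds give the share of every eligible exon window. TEAD and RUNX letters are above the diamonds in exonic and intronic regions, and CCAAT and GC box letters are most frequent at starts.

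Examples are given from coding sequence with the motif letters nearest the summit in capitals, on the gene's strand, so that CATTCC may read as GGAATG and TGTGGT as ACCACA. They are at chr12:10634578-10634607 (STYK1, minus strand), chr1:94045761-94045790 (ABCA4, minus) and chr1:52237646-52237675 (ZFYVE9, plus), and were chosen for a motif within 6 bp of the summit after the values were seen.
STYK1 exon 3, TEAD letters 1.5 bp from the summit: acggatgctcctGGAATGcagtctcagtga
ABCA4 exon 19 of a transcript other than the canonical one, TEAD letters 2.5 bp away: acaccctgtgatGGAATGttctctagggcg
ZFYVE9 exon 4, RUNX letters 5.5 bp away: tcagctcccctgACCACAgaggaagaggat
STYK1, a receptor kinase-like gene, had 29 fragments (19.4 to 41.6), ABCA4, the retinal transporter gene, 17 (9.90 to 27.2), and the ZFYVE9 region 27 (17.8 to 39.3). Over all exonic regions with the letters the median distance from the summit was 22.5 bp for TEAD, the same as in introns, and 18.5 bp for RUNX, beside 22.5 bp in introns. The letters were within 20 bp of the summit in 14 of 34 regions for TEAD (41.2%, beside 45.9% in introns) and in 22 of 43 for RUNX (51.2%, beside 43.9%).

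Repeated sequence concerned few regions. The central 31 bases matched the genome more than once in 7 of 290, with 4909 exact matches for LMOD3, 346 for SMYD4, 89 for PIK3C3, 14 for CALD1 and 2 each for ZNF33A, TNFRSF19 and SLC8A2. Reads from such copies can be placed at the wrong one, and how multiply mapped reads were treated is not given in the sources used here.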

How the data were processed

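CUT&RUN for ZNF469 was analysed in 6 LX-2 libraries, 3 per construct. The submitters' processing notes name hg38, Bowtie2 2.3.4.3 and MACS2 2.2.5. The authors called peaks, combined the 3 libraries of each group, and deposited 1 list per group of records passing an irreproducible discovery rate filter. Each deposited record holds a fold enrichment (a ratio), a −log10 p-value and a summit offset. From the fold and −log10 p a whole-number pileup was recovered for 100% of records (largest miss 6.94e-05), and simulated records were recovered at 100%. Total reads per library were not analysed here, so depth is given by the pileups and their exact Poisson limits. Those limits, like the Wilson intervals, cover counting error only.

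Summits were classified with GENCODE version 44, the canonical transcript first and then coding, 5' UTR, 3' UTR and noncoding exons of other transcripts, using Python 3.11.15, numpy 2.4.6, scipy 1.17.1 and pysam 0.24.0. Medians carry binomial order-statistic limits, and ratios of densities carry exact binomial limits. No test between groups was possible. Regions were named when among the 10 highest by fold or pileup, the 5 highest by background or width, shared with dZF, in a gene with 3 or more regions, in a listed gene, or at the 1 kb limit. EXT1, PUS7L, MAML1, ZFYVE9, RIN2, PCNX2, CNKSR3, ENC1, ZCCHC9, ELK3, LMO7, HTR1D, FABP12, STYK1, ABCA4, 3 genes near starts (COL1A1, COL1A2, ZNF469) and the genes with repeated sequence were named after their values were seen. The exonic regions and the gene lists were chosen with earlier results of these data known. The sequence of 1 named coding region is not reported here.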

Additional observations from a re-analysis of the deposited data

How the results depend on the processing

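The 11 quantities that summarise the exonic regions were recomputed under 10 alternatives. Of 110 values, 85 stayed within the interval of the reported value (for counts, within 1.5 times) and 25 moved. With starts counted to 3 kb, the 3' UTR share was 68.8%, the last-exon share 80.7% and the dZF overlap 0%, because ATP7B lies 2383 bp from a start. With starts counted to 500 bp, the share whose gene had a region at a start was 40.2%. That share kept its limit of 1 kb, so a region between 500 bp and 1 kb from a start of its gene could count itself. With starts of protein-coding transcripts only, the 3' UTR share was 50.6%, the last-exon share 61.3%, the share with a region at a start 51.3% and the density 4.70 per Mb. Here too, a region near a noncoding start of its own gene could count itself in the share with a region at a start. With canonical transcripts only, the coding share was 26.6% and the 3' UTR share 72.4%. Keeping TRE sites gave 5.47 per Mb. Excluding a TRE anywhere in the record left 186 regions and 2.66 per Mb. The upper 50% of the list by fold left 150 regions (2.15 per Mb) with an internal-exon share of 15.3%, a share with a region at a start of 23.3%, a median fold of 8.46 and a median pileup of 24. The upper 25% left 63 (0.901 per Mb) with a 3' UTR share of 73.0%, a share with a region at a start of 27.0%, a median fold of 9.88 and a median pileup of 28. Fewer regions by construction lower the counts and densities of the last 3 settings. Cutting the list by fold also raises its median fold by construction, and keeping TRE sites adds the 98 exonic regions that hold one. Apart from these and the effects of the settings named above, the cause of the shifts was not tested. In a comparison added after seeing the data, the coding density was 2.59 per Mb with protein-coding starts only and 2.60 with 3 kb, while introns held 4.97 and 4.65. No paired analysis was possible because the 3 libraries of a construct were merged into a single list that holds no value per library, and for the same reason no library could be left out.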
